A study of Mus musculus with 6 samples.

Results

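The 36 genes described here encode the ligands, latent binding proteins, receptors, SMAD proteins, inhibitors and a target of TGF-beta, activin and BMP signalling. They were picked by gene symbol, with earlier results of these arrays known, so their counts of calls are descriptions. They matched 37 probe sets, 2 of them for Smurf2, among the 25123 probe sets with a symbol (22319 genes). RNA was read on Affymetrix Mouse Gene 1.0 ST arrays, which give 1 intensity per probe set and array. All 6 samples were c-kit+ cells of mouse bone marrow that carried MLL-AF9, the leukemia fusion gene that had transformed them. They had received the retroviral vector pMIG-TGIF1 (3 arrays) or the vector pMIG without TGIF1 (3 arrays), which also marks cells with GFP. Cells positive for GFP were sorted 3 days after transduction and kept in medium for 1 day, and 300 ng of RNA per sample was labelled. The series title asks about TGIF1 in MLL-rearranged acute myeloid leukemia, and the design holds the single comparison of pMIG-TGIF1 with pMIG. No label says that replicates came from separate transductions or mice, so each p-value rests on a spread between samples that may be technical alone.

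TGF-beta, activins and BMPs are secreted dimers that bring type II and type I receptor kinases together on the cell surface. The type I receptor then phosphorylates receptor SMADs (Smad2 and Smad3 mainly for TGF-beta and activin, Smad1, Smad5 and Smad9 mainly for BMP), which join Smad4 and act on genes in the nucleus. TGIF1 is a homeodomain corepressor known to bind TGF-beta activated SMADs, and in blood cells TGF-beta is known as a brake on the growth of stem and progenitor cells.

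In the arrays labelled pMIG-TGIF1, 5 of 11 receptors and coreceptors and 4 of 8 inhibitors of the pathway were called higher. None of 5 ligands was called, and of these only Tgfb1 read above the array medians. Some called members were dim as well. Eng and Ltbp2 read below the array medians in all 6 arrays, and Tgfbr3, Smad6 and Pmepa1 did so in all 3 pMIG arrays. Of the 36 genes, 12 rose, 1 (Smad5) fell and 23 did not pass at a limma Benjamini-Hochberg adjusted p under 0.05 over all named probe sets. The coreceptor Tgfbr3 was 3.52-fold higher, the type II BMP receptor Bmpr2 1.82-fold, the matrix protein gene Tgfbi 1.79-fold and the SMAD corepressor Skil 1.69-fold. Calls in either direction made up 24.7% of all named probe sets. Of the 37 member probe sets 12 (32.4%) were called higher, where 11.5% of all named probe sets were, and 1 (2.70%) was called lower, where 13.2% of all were. The 3 arrays of one vector lay wholly above the 3 of the other in 15 member probe sets with pMIG-TGIF1 on top and in 1 with pMIG on top, against 18.7% and 19.7% of all named probe sets. The median log2 fold change was 0.19 over the 36 genes and 0.017 over all genes.

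Among all named probe sets 2892 were called higher and 3308 lower, and arrays correlated between 0.994 and 0.997 within groups and between 0.975 and 0.984 across them. Array medians were higher in pMIG-TGIF1 (6.41 to 6.46 on the log2 scale) than in pMIG (6.31 to 6.33). Centring each array on its median moves every log2 fold change by -0.11, and the calls then number 2179 higher and 4870 lower. With that centring 9 member probe sets were called higher, where 8.67% of all were, and 1 lower, where 19.4% of all were. Outside the dimmest 30% of probe sets the 13 member calls stayed (12 of 34 higher and 1 lower), where 16.5% of all were called higher and 19.9% lower. Tgif1 itself was lower under its own vector's label. Its probe set read 239, 239 and 258 in pMIG-TGIF1 and 319.6, 376 and 408 in pMIG (log2 -0.58 ± 0.11 SE, limma adjusted p = 0.00286). A probe set that does not read the sequence in the vector would check nothing, so directions rest on the labels. None of 12 markers of haematopoietic and progenitor cells, among them Ptprc, Spi1 and Elane, lay in the dimmest 30% of probe sets. Of these 12, Ptprc rose and Kit, Mpo, Cd34 and Coro1a fell, where 11.5% of all named probe sets rose and 13.2% fell. With array median centring 1 was called higher and 6 lower, where 8.67% and 19.4% of all were. The summed intensity of the 12 ran from 26473 to 28827 in pMIG-TGIF1 and from 27349 to 28826 in pMIG. Elane alone averaged 8069 in pMIG-TGIF1 and 9041 in pMIG, so the sum says little about the dimmer markers.

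**Figure D1:**
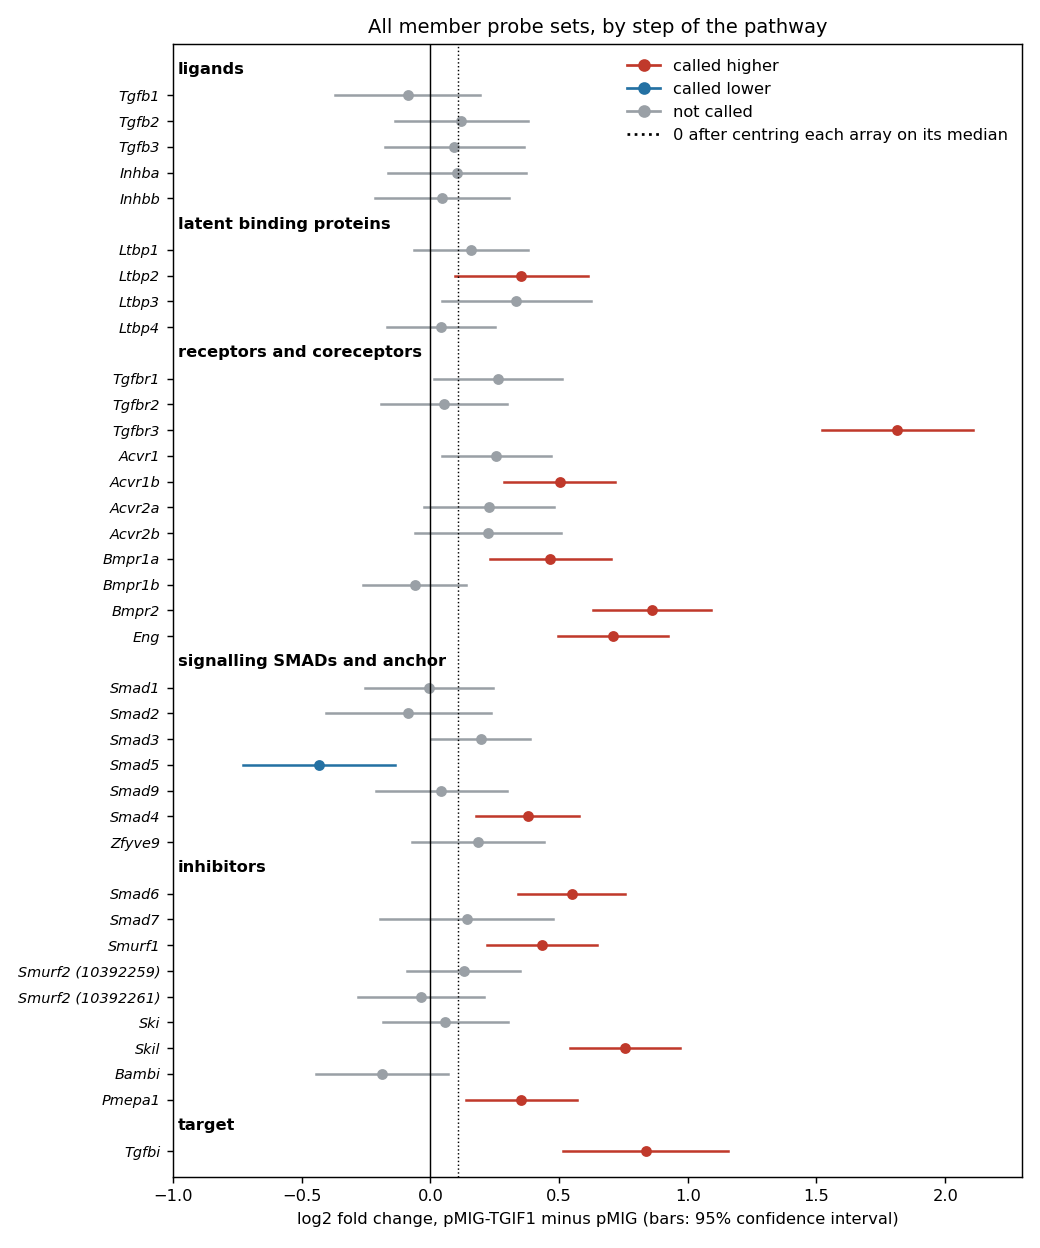
Log2 fold change, pMIG-TGIF1 minus pMIG (x axis), of the 37 member probe sets, ordered down the page by step of the pathway, with 95% confidence intervals as bars. The receptors and inhibitors hold 9 of the 12 probe sets called higher, all 5 ligands have intervals that include 0, and the dotted line marks where 0 lies after each array is centred on its median.

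Start-site sequences are shown for the 4 called members with the largest change among those in the RefSeq promoter table of build GRCm38.p6, which matched 28 of the 36 genes. Each is the 250 bases before the annotated start, 5′ to 3′ on the gene's strand. Capitals mark 3 motifs: CAGAC or GTCTG, known as a SMAD element; TGTCA or TGACA, the core that TGIF proteins are known to bind; and GGCGCC, a GC-rich element bound by SMAD proteins. Bmpr2 lies at chr1:59764029-59764278 (+), Tgfbi at chr13:56609336-56609585 (+), Eng at chr2:32646345-32646594 (+) and Smad6 at chr9:64022060-64022309 (-).
Bmpr2: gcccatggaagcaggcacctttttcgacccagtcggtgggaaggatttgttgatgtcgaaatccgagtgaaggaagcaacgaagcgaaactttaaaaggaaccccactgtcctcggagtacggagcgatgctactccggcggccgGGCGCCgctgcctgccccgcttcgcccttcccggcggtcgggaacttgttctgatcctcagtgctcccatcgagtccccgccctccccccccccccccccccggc
Tgfbi: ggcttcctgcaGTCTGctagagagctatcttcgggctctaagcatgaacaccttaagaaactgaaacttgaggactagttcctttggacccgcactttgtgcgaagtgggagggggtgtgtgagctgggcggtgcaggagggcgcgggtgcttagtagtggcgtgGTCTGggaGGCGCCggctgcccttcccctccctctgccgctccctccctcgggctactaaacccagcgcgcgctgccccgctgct
Eng: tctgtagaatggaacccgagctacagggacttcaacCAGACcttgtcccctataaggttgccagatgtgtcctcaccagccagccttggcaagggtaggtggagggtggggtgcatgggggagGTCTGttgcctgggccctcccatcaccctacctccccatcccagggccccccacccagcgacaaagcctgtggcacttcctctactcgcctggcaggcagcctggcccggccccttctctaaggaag
Smad6: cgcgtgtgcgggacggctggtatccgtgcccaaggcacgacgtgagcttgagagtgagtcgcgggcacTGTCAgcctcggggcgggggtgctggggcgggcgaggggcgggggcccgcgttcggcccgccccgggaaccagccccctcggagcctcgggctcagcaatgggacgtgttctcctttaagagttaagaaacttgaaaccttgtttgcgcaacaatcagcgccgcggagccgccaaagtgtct
The SMAD element stood 2 times each in the Tgfbi and Eng windows, the TGIF core once in the Smad6 window, and GGCGCC once each in the Bmpr2 and Tgfbi windows. Both strands were searched, and overlapping matches were counted. Over the 36 windows of the 28 matched genes, the SMAD element was present in 16 (44.4%), against 42.2% of the 32851 windows in the table. The TGIF core was present in 8 (22.2%), against 40.0% of all, and GGCGCC in 10 (27.8%), against 9.59% of all. The member windows were richer in G and C than the table as a whole (median 65.4% against 52.4%), a difference that was not adjusted for. A match is a run of letters and does not show that a protein was bound there.

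Ligand genes did not pass. None of the 5 was called in either direction, and their median log2 fold change was 0.094. Tgfb1, the main TGF-beta of blood cells, read 2563, 2396 and 2322 in pMIG-TGIF1, against 2233, 3132 and 2452 in pMIG. These arrays overlap, and the fold of 0.940 had a 95% confidence interval from 0.774 to 1.14 (adjusted p = 0.701). Tgfb2 and Tgfb3, the other TGF-betas, differed by 1.09-fold and 1.07-fold, and both lay among the dimmest 30% of probe sets, so that little signal stood behind them. Inhba and Inhbb, whose products form the activins, differed by 1.07-fold and 1.03-fold (adjusted p = 0.623 and adjusted p = 0.850). All 5 intervals include equal levels, and their outer ends were 0.774-fold for Tgfb1 and 1.30-fold for Tgfb2.

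Latent binding proteins hold TGF-beta in an inactive complex in the matrix, except Ltbp2, which is known not to bind it. Ltbp2 read 75.9, 74.9 and 85.1 in pMIG-TGIF1, against 70.0, 53.3 and 62.1 in pMIG, so that the groups did not overlap. It was 1.28-fold higher (95% confidence interval 1.07 to 1.53, adjusted p = 0.0493), a call that sat at the threshold. It was lost with array median centring (log2 0.25, adjusted p = 0.137) and without any 1 of 5 arrays (adjusted p = 0.0691 to adjusted p = 0.184), all but pMIG replicate 1. The replicate block, the robust trended prior, no moderation and quantile normalization lost it too. So did array weights and adding probe sets with no symbol (adjusted p = 0.0559 to adjusted p = 0.17 over these fits). Ltbp3 was 1.26-fold higher in the mean with overlapping groups (adjusted p = 0.0940), and it was called without pMIG-TGIF1 replicate 2 (log2 0.47, adjusted p = 0.0159). Ltbp1 (1.11-fold) and Ltbp4 (1.03-fold) did not pass.

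Of the 11 receptors and coreceptors 5 rose and none fell, with a median log2 fold change of 0.26. Tgfbr3, or betaglycan, is a coreceptor that presents TGF-beta2 to the receptor kinases and also binds inhibin. It read 186, 168 and 244 in pMIG-TGIF1, against 56.5, 57.7 and 53.7 in pMIG. Every pMIG-TGIF1 array lay far above every pMIG array, and the fold was 3.52 (95% confidence interval 2.87 to 4.31, adjusted p = 7.19e-06). Eng, or endoglin, is the related coreceptor of endothelial cells and also marks macrophages and stem cells. It read 64.1, 61.6 and 68.7 in pMIG-TGIF1, against 36.6, 40.4 and 41.9 in pMIG, and rose 1.64-fold (95% confidence interval 1.41 to 1.90, adjusted p = 0.000369). Both coreceptors therefore rose, each with groups that did not overlap.

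Of the receptor kinases of the BMP and activin arms, Bmpr2, Acvr1b and Bmpr1a rose, whereas Acvr1, Acvr2a, Acvr2b and Bmpr1b did not pass. Bmpr2, the type II receptor for BMPs, read 387, 372 and 329 in pMIG-TGIF1, against 183, 214 and 203 in pMIG, a fold of 1.82 (95% confidence interval 1.55 to 2.13, adjusted p = 0.000174). Acvr1b (ALK4), the type I activin receptor, read 405, 367 and 436 in pMIG-TGIF1, against 290.1, 274 and 287 in pMIG, a fold of 1.42 (1.22 to 1.64, adjusted p = 0.00326). Bmpr1a (ALK3), a type I BMP receptor, read 332, 399 and 402 in pMIG-TGIF1, against 287, 275 and 256 in pMIG, a fold of 1.38 (1.17 to 1.63, adjusted p = 0.00820). For all 3 kinases the lowest pMIG-TGIF1 array lay above the highest pMIG array. The call of Bmpr1a was lost without variance moderation (adjusted p = 0.0638).

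The TGF-beta receptor kinases did not pass. Tgfbr2, the type II receptor that binds TGF-beta first, read 339, 293 and 379 in pMIG-TGIF1, against 324, 309 and 337 in pMIG. The groups overlapped, the fold was 1.04 (95% confidence interval 0.876 to 1.23, adjusted p = 0.802), and its direction turned with array median centring (log2 -0.055). Tgfbr1 (ALK5), its type I partner, read 495, 600.0 and 487 in pMIG-TGIF1, against 473, 404 and 438 in pMIG. These groups did not overlap, but the fold of 1.20 (1.01 to 1.43) had an adjusted p = 0.122, and it was called with quantile normalization alone of the alternatives run (log2 0.34, adjusted p = 0.0429). Acvr1 (ALK2), a type I BMP receptor, was likewise apart between groups without passing (1.19-fold, adjusted p = 0.0801). The type II activin receptors Acvr2a and Acvr2b were each 1.17-fold higher in the mean with overlapping groups, and the type I receptor Bmpr1b was at 0.959-fold. Whether the BMP and activin kinases differed from the TGF-beta kinases in their response was not tested.

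**Figure D2:**
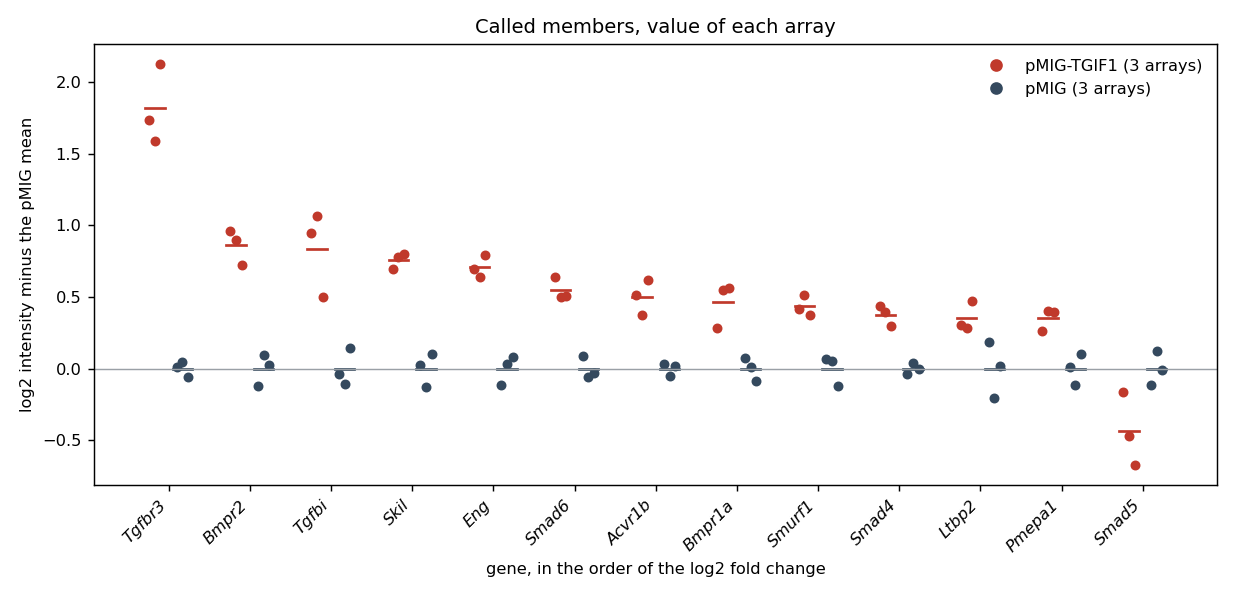
Log2 intensity of each array minus the mean of the pMIG arrays (y axis) for the 13 called members (x axis), with points for single arrays and short lines for group means. Tgfbr3 stands apart with a mean of 1.81 in the pMIG-TGIF1 arrays, Smad5 is the one gene with all 3 pMIG-TGIF1 arrays below pMIG, and in the other 12 they lie above it.

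The signalling SMADs mostly did not pass, with 1 of 7 genes of this step higher and 1 lower. Smad4, the partner that all receptor SMADs share, read 667, 646 and 605 in pMIG-TGIF1, against 479, 505 and 492 in pMIG. The groups did not overlap and the fold was 1.30 (95% confidence interval 1.13 to 1.49, adjusted p = 0.0102). With array median centring the call was just lost (log2 0.27, adjusted p = 0.0538). Smad5, a receptor SMAD of the BMP arm, read 357, 289 and 251 in pMIG-TGIF1, against 369, 435 and 397 in pMIG. It fell 1.35-fold (95% confidence interval 1.10 to 1.66, adjusted p = 0.0364), with no overlap, although pMIG-TGIF1 replicate 1 lay close to the lowest pMIG array. That call was lost without any 1 of 5 arrays, all but pMIG-TGIF1 replicate 1 (adjusted p = 0.0534 to adjusted p = 0.131), while the log2 fold change stayed between -0.57 and -0.31.

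The receptor SMADs of the TGF-beta and activin arm did not pass. Smad2 read 466, 548 and 353 in pMIG-TGIF1, against 455, 489 and 484 in pMIG, so that the pMIG-TGIF1 arrays lay on both sides of pMIG (0.943-fold, 95% confidence interval 0.755 to 1.18, adjusted p = 0.756). Without pMIG-TGIF1 replicate 3, its lowest array, the log2 fold change of Smad2 was 0.087, with the sign turned from the -0.085 over all arrays. Smad3 read 164, 171 and 177 in pMIG-TGIF1, against 148, 149 and 150.4 in pMIG. The groups were apart by a small margin, at 1.14-fold (1.00 to 1.31, adjusted p = 0.142), and without variance moderation the difference was called (adjusted p = 0.0365). Smad1 and Smad9, the other receptor SMADs of the BMP arm, differed by -0.0060 and 0.042 on the log2 scale. Zfyve9, which encodes the anchor SARA that brings Smad2 and Smad3 to the receptor, was among the dimmest 30% of probe sets and did not pass (1.14-fold, adjusted p = 0.306).

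Of the 8 inhibitors 4 rose and none fell, with a median log2 fold change of 0.25. Skil (SnoN), a corepressor that binds SMADs and is itself known as a TGF-beta target, read 584, 619 and 627 in pMIG-TGIF1, against 368, 329.99 and 387 in pMIG, a fold of 1.69 (95% confidence interval 1.46 to 1.96, adjusted p = 0.000252). Smad6, the inhibitory SMAD that mainly blocks the BMP arm and is known to be induced by it, read 115, 105 and 105 in pMIG-TGIF1, against 78.9, 71.3 and 72.4 in pMIG, a fold of 1.46 (1.27 to 1.69, adjusted p = 0.00155). Smurf1, a ubiquitin ligase that marks BMP SMADs for degradation, read 215, 229.8 and 208 in pMIG-TGIF1, against 169, 167 and 148 in pMIG, a fold of 1.35 (1.17 to 1.57, adjusted p = 0.00691). For these 3 genes the groups did not overlap, and the calls were kept in each of the 16 alternatives. Pmepa1, a TGF-beta induced membrane protein that sequesters receptor SMADs, read 80.4, 88.5 and 88.2 in pMIG-TGIF1, against 67.5, 61.9 and 72.0 in pMIG (1.28-fold, adjusted p = 0.0222). Its call was lost with array median centring (log2 0.25, adjusted p = 0.0856), with quantile normalization, without variance moderation and without any 1 of 4 arrays (adjusted p = 0.0520 to adjusted p = 0.0923), namely pMIG-TGIF1 replicate 2 or 3 or pMIG replicate 1 or 2.

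The other inhibitors did not pass. Smad7, the inhibitory SMAD that acts on the TGF-beta receptor, read 200.01, 170.2 and 222 in pMIG-TGIF1, against 148, 220.1 and 173 in pMIG. Its groups overlapped widely (1.10-fold, 95% confidence interval 0.874 to 1.39, adjusted p = 0.588). The corepressor Ski differed by 0.059 on the log2 scale, and the pseudoreceptor gene Bambi by -0.19 (adjusted p = 0.301). Smurf2, a ubiquitin ligase related to Smurf1, had probe sets with folds of 1.09 and 0.976, of opposite direction and neither called. Of the inhibitors known as feedback targets, Smad6, Skil and Pmepa1 rose, while Smad7 and Bambi did not pass.

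Tgfbi, the one gene listed for the target step, encodes a matrix protein first found as induced by TGF-beta, and monocytes and macrophages also express it. It read 214, 233 and 157 in pMIG-TGIF1, against 108, 104 and 123 in pMIG. The groups did not overlap, with pMIG-TGIF1 replicate 3 the closest to pMIG, and the fold was 1.79 (95% confidence interval 1.43 to 2.23, adjusted p = 0.00169). Without variance moderation the call was lost (adjusted p = 0.0659). In the RefSeq annotation Tgfbi and Smad5 are neighbours on chromosome 13 with 0 protein-coding genes between them, and they moved in opposite directions. Smad3 and Smad6 are neighbours on chromosome 9 in the same way, and of that pair only Smad6 passed, although the difference between them was not tested.

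**Figure D3:**
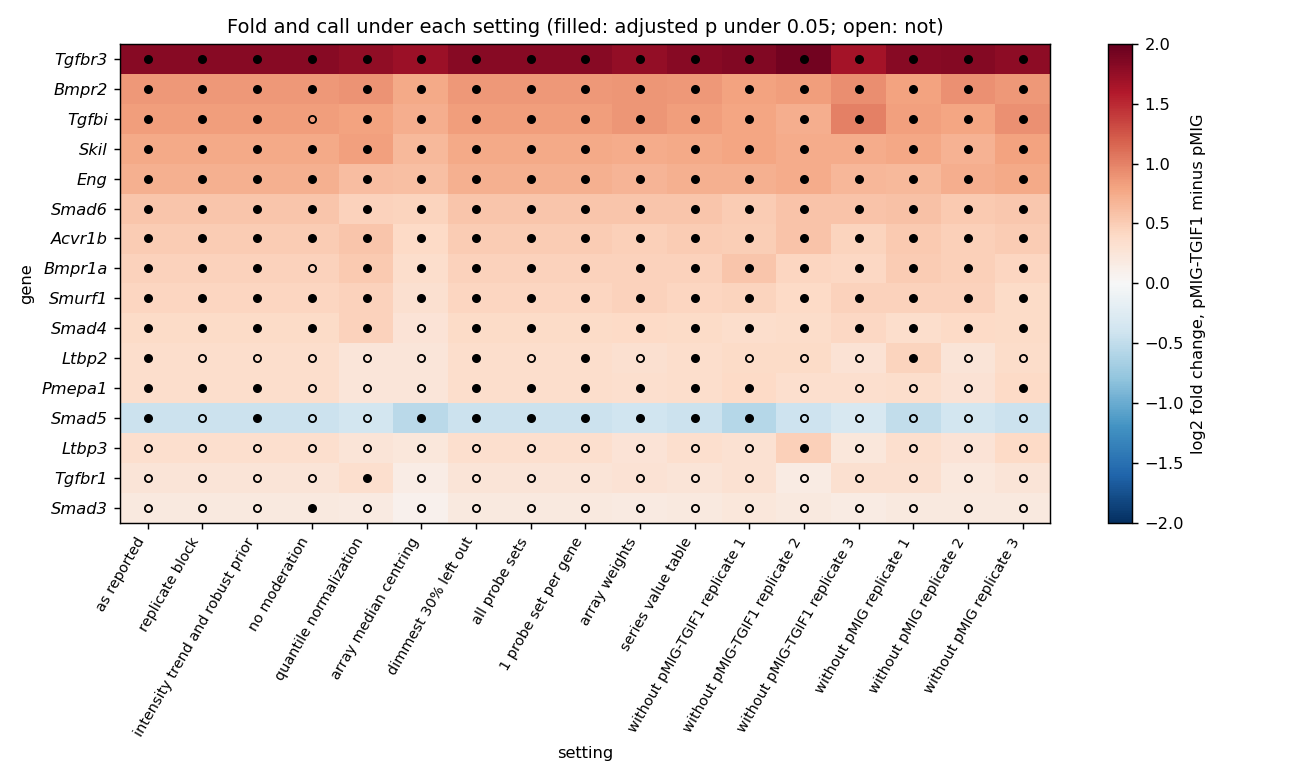
Log2 fold change, pMIG-TGIF1 minus pMIG (colour), of the 13 called members and of Ltbp3, Tgfbr1 and Smad3 (y axis) in the reported fit and in each of the 16 alternatives (x axis); filled circles mark an adjusted p under 0.05. Tgfbr3, Bmpr2, Skil, Eng, Smad6, Acvr1b and Smurf1 are filled throughout, whereas Ltbp2, Pmepa1 and Smad5 are open in several columns.

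Other genes of the pathway, in 7 lists of 95 measured genes, also held more calls higher than lower. Of these 28 rose and 5 fell, which is 28.9% and 5.15% of their 97 probe sets, where 11.5% and 13.2% of all named probe sets were called higher and lower. Their median log2 fold change was 0.15, and the same background applies to the counts of each list and of the markers that follow. The lists were drawn up with earlier results of these arrays known, so their counts are descriptions. Of the other receptors and coreceptors 3 of 7 rose. Acvrl1 (ALK1), the type I receptor that pairs with endoglin, read 243, 243 and 250.5 in pMIG-TGIF1, against 129, 114 and 106 in pMIG, a fold of 2.12 (95% confidence interval 1.82 to 2.47, adjusted p = 3.25e-05). The BMP coreceptors Rgmb and Rgma were 1.66-fold and 1.42-fold higher, and both calls were lost without variance moderation (adjusted p = 0.124 and adjusted p = 0.123). With Tgfbr3 and Eng, coreceptor genes made up 4 of the 8 calls in the 2 receptor lists, of 11 and 7 genes. The coreceptor genes Hjv (1.14-fold, adjusted p = 0.365) and Tdgf1 (1.20-fold, adjusted p = 0.105) did not pass. Whether coreceptors differed from the other receptors was not tested.

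Of 12 extracellular antagonists 3 rose and none fell. With array median centring 3 were called higher and 1 lower (Fstl3, adjusted p = 0.0411), where 8.67% and 19.4% of all named probe sets were. Fst, which encodes the activin trap follistatin, read 140.5, 139 and 139 in pMIG-TGIF1, against 73.1, 69.4 and 62.7 in pMIG, a fold of 2.04 (adjusted p = 3.16e-05). Its relative Fstl1 rose 1.57-fold and the BMP modulator Twsg1 1.56-fold. Among 17 other ligands 1 rose, Nodal (1.36-fold, adjusted p = 0.0319), whose call was lost with array median centring (adjusted p = 0.0821), quantile normalization, array weights and no moderation (adjusted p = 0.0541 to adjusted p = 0.167 over these 4). It was also lost without pMIG-TGIF1 replicate 2 or 3 or pMIG replicate 1 or 2 (adjusted p = 0.0626 to adjusted p = 0.127). Bmp2, Bmp4, Bmp6 and Bmp7 did not pass. Of 12 genes that free or anchor latent TGF-beta, 3 rose and 1 fell. Thbs1, whose product can activate latent TGF-beta, rose 25.7-fold, the protease gene Plau 2.76-fold and the integrin gene Itgav 1.81-fold. Nrros, which anchors latent TGF-beta on myeloid cells, fell 1.26-fold (864, 835 and 827 in pMIG-TGIF1, against 1082, 1048 and 1059 in pMIG, adjusted p = 0.0150). That call was just lost without pMIG replicate 1 (adjusted p = 0.0549) or pMIG replicate 3 (adjusted p = 0.0512).

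Known target genes held the highest share of calls among these lists, with 12 of 16 higher, none lower and a median log2 fold change of 0.65. With array median centring 11 were called higher and 1 lower (Tgfb1i1, adjusted p = 0.0367), where 8.67% and 19.4% of all named probe sets were. Fn1, which encodes fibronectin, read 337, 299 and 382 in pMIG-TGIF1, against 43.7, 44.7 and 52.3 in pMIG (7.22-fold, adjusted p = 1.84e-07). Fn1 was higher in each pMIG-TGIF1 array than in any pMIG array. The BMP target Id2 rose 4.95-fold, the AP-1 gene Junb 2.34-fold, Id3 1.57-fold and Id1 1.36-fold (Id1 was not called with array median centring, adjusted p = 0.0573), while the connective tissue growth factor gene Ccn2 did not pass (log2 -0.15, adjusted p = 0.445). These genes respond to many signals and are not measures of SMAD activity alone.

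Cytoplasmic modifiers and nuclear partners were mixed. Of 19 modifiers 5 rose and 2 fell, and the endocytic adaptor gene Dab2 led with 2633, 2825 and 2723 in pMIG-TGIF1, against 714, 734 and 813 in pMIG (3.62-fold, adjusted p = 6.57e-07). The SMAD ubiquitin ligase gene Nedd4l rose 1.42-fold, while Pdpk1 fell 1.44-fold and Usp15, a deubiquitinase of this pathway, fell 1.33-fold. Of 12 nuclear partners 1 rose (Zeb2, 1.31-fold) and 2 fell, the pocket protein gene Rbl1 (1.94-fold) and the corepressor gene Ctbp1 (1.24-fold). The Ctbp1 call was lost without pMIG-TGIF1 replicate 3 or any 1 pMIG array (adjusted p = 0.0671 to adjusted p = 0.0880). It was also lost with the replicate block (adjusted p = 0.0711), and the Rbl1 call was lost without variance moderation (adjusted p = 0.0907). Another probe set of Rbl1 did not pass (log2 -0.099, adjusted p = 0.613). With array median centring 24 of the other pathway probe sets were called higher and 9 lower. Among the 19 modifiers 3 were then called higher and 4 lower, where 8.67% and 19.4% of all named probe sets were.

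**Figure D4:**
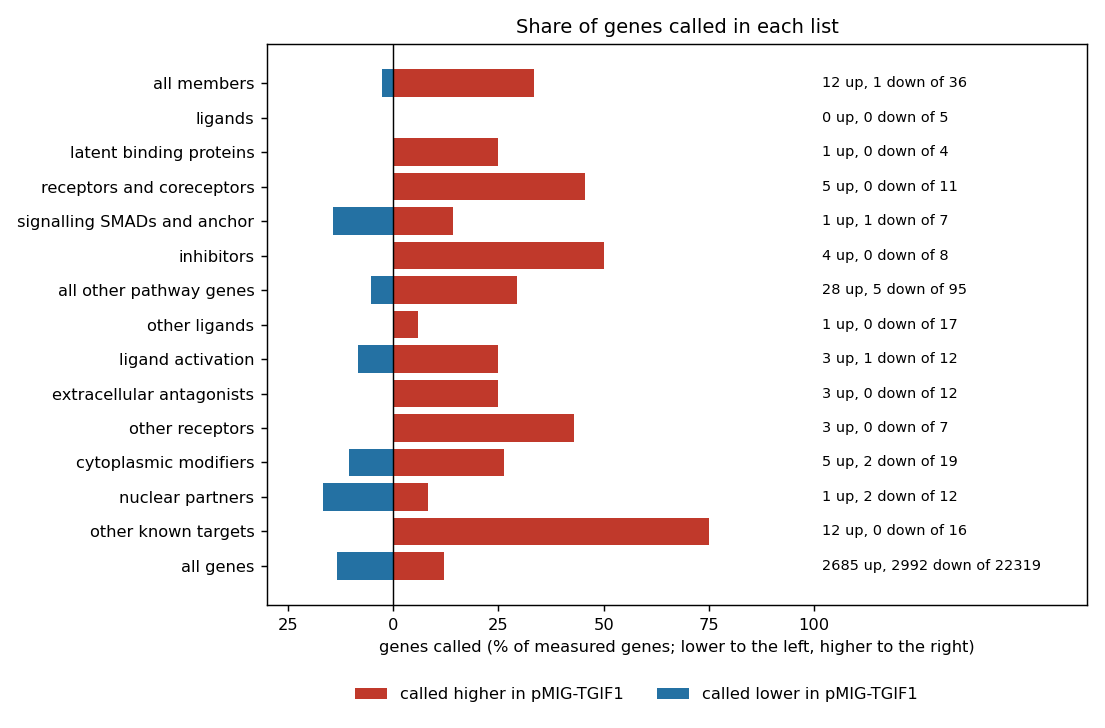
Share of measured genes called higher (to the right) or lower (to the left) in pMIG-TGIF1, in percent (x axis), for the members, their steps other than the single target gene Tgfbi, the other pathway lists and all genes (y axis), with 1 probe set per gene. Of the lists drawn, known targets (12 of 16), inhibitors (4 of 8) and both receptor lists (5 of 11 and 3 of 7) have the longest bars to the right, and the 5 ligands have none.

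Several members are also known from other cells, and markers of those cells were measured on the same arrays. Fewer cells of a type and less RNA per cell cannot be told apart in such bulk samples. Of 15 stroma and endothelium markers 3 rose (Acta2, Thy1 and Vwf) and 1 fell (Pecam1). Their summed intensity ran from 2165 to 2386 in pMIG-TGIF1 and from 2206 to 2466 in pMIG. Pecam1 alone averaged 1030 in pMIG-TGIF1 and 1457 in pMIG. The 11 markers besides these 4, which include the defining markers Col1a1, Pdgfra, Lum, Cdh5 and Kdr, were not called. However, Pdgfra, Lum, Cdh5 and Kdr lay among the dimmest 30% of probe sets, so that little signal stood behind them. Without passing, Kdr was apart between groups and higher in pMIG-TGIF1 (adjusted p = 0.123), and Col1a1 was apart and lower (adjusted p = 0.568). The sum of the 11 ran from 507 to 550 in pMIG-TGIF1 and from 486 to 535 in pMIG. Of the 15 markers 6 lay among the dimmest 30% of probe sets. Of 11 measured megakaryocyte and platelet markers 4 rose (Ppbp, Pf4, Treml1 and Vwf). The summed intensity of the 11 ran from 3488 to 4978 in pMIG-TGIF1 and from 824 to 954 in pMIG. Ppbp alone averaged 2466 in pMIG-TGIF1 and 78.7 in pMIG, and Pf4 averaged 951 and 53.2. That sum therefore says little about the other markers of the list. The defining receptors Itga2b, Gp1ba, Gp5 and Gp9 were not called. Of T and NK cell markers 3 of 10 rose, of B cell markers 1 of 8, and of erythroid markers 1 of 7 rose and 1 fell, while of mast cell and basophil markers 2 of 8 fell. Among the 10 T and NK cell markers 5 lay in the dimmest 30% of probe sets, and the called genes Cd3d and Cd3g were among these. With array median centring 2 of the 10 were called higher and 1 lower (Lck, adjusted p = 0.0362). An array gives no true 0, so no marker can be called absent, and the part of these marker changes in the changes of the members was not tested.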

How the data were processed

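Intensities are RMA values on a linear scale that the authors deposited for each probe set and array, and the submitters' processing notes list Partek and RMA; RMA settings and the genome build are not given in the sources used here. The 28853 intensities per array were the same in both deposited tables. The authors' deposited table also holds p-values to 2 decimals and a signed fold change, neither of which was used. Symbols were taken from that table and updated through a RefSeq gene table, and 3730 probe sets that carry no symbol were not used. The log2 intensities of the 6 arrays went into 1 model (limma 3.58.1, R 4.3.3, lmFit and eBayes) for the difference pMIG-TGIF1 minus pMIG, with no covariate and no filter on dim probe sets. Calls are at a Benjamini-Hochberg adjusted p under 0.05 over 25123 probe sets. Of the 37 member probe sets 34 lay outside the dimmest 30%. SE and 95% intervals are those of the moderated fit, and an exact two-sided permutation test of 3 arrays against 3 cannot go below 0.1. The number of arrays limits the precision. The fit was tested on simulated data with planted changes and independent noise. Such data hold no batch, pairing or shift of array medians, so the test says nothing about these. Scaling was varied by quantile normalization and by centring arrays on their medians. The fit was varied by a replicate block, array weights, a robust trended prior and the absence of moderation. The features were varied by dropping the dimmest 30%, keeping a single probe set for each gene or adding those with no symbol. Finally, the second deposited table was used, and every array was left out in turn.

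List counts use the probe set with the highest mean per gene. Array values are printed for each called member and for 8 central genes. At most 4 called genes with the smallest p are named from each other list. Further genes (Id1, Id3, Ccn2, Tgfb1i1, Fstl3, Bmp2, Bmp4, Bmp6, Bmp7, Hjv, Tdgf1 and markers) were chosen after their values were seen. Members and lists were chosen with earlier results of these data known. The motifs were also chosen then. The named-gene rule has exceptions, since some genes it would name are not reported here.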

Additional observations from a re-analysis of the deposited data

How the results depend on the processing

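Besides the reported fit, 16 alternatives were run, 6 of which leave out 1 array each. Member probe sets called higher numbered 9 to 12 in all of them, and 7 of the calls (Tgfbr3, Bmpr2, Skil, Eng, Smad6, Acvr1b and Smurf1) were kept in each. The single call lower, Smad5, was lost with the replicate block, without moderation and with quantile normalization, which left 0, and the count ran from 0 to 1 without single arrays. Without moderation the calls over all probe sets numbered 3401 (6200 as reported) and those of other pathway genes called higher 17 (28 as reported). Other pathway genes called lower numbered 9 with array median centring and 3 to 5 without single arrays. The cause of these differences was not tested.

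The titles share replicate numbers across groups, but whether the numbers pair the arrays is not known. Arrays of the same number deviated from their group means with correlations of -0.19, -0.11 and -0.049. For arrays of unlike number the correlations ran from -0.067 to 0.18. With 3 arrays per group, such values cannot settle whether the arrays are paired. With the replicate block 11 member probe sets were called higher and 0 lower (Ltbp2 and Smad5 lost), and 5536 calls were made in all.

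Directions turned only in members that were never called. With array median centring the log2 fold change was -0.014 for Tgfb3, -0.0046 for Inhba, -0.064 for Inhbb, -0.067 for Ltbp4, -0.055 for Tgfbr2, -0.066 for Smad9 and -0.049 for Ski. With quantile normalization it was -0.039 for Inhbb, -0.065 for Ltbp4, -0.058 for Smad9 and 0.030 for Smurf2 (probe set 10392261). Without single arrays it ran from -0.19 to 0.052 for Tgfb1, from -0.039 to 0.18 for Tgfb3, from -0.016 to 0.19 for Inhba and from -0.040 to 0.14 for Inhbb. The same range was -0.035 to 0.15 for Tgfbr2, -0.10 to 0.094 for Smad1, -0.23 to 0.087 for Smad2 and -0.026 to 0.13 for Smad9. It was -0.10 to 0.054 for Smurf2 (probe set 10392261) and -0.019 to 0.13 for Ski. With the dimmest 30% left out, Tgfb2, Tgfb3 and Zfyve9 had no value, and 16.5% of all probe sets were called higher and 19.9% lower.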
